A study of Homo sapiens with 2 samples.

Results

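The 10 genes described here encode the core of the machinery that takes a cell from G1 into S phase: the D-type cyclins CCND1 and CCND3, cyclin E1 (CCNE1), the cyclin-dependent kinases CDK2, CDK4 and CDK6, the ubiquitin ligase subunit SKP2 with its cofactor CKS1B, the phosphatase CDC25A and the transcription factor MYC. They were chosen by gene symbol, and every probe named for one of them was used: 15 of 13060 named probes, for 10 of 10161 named genes. The cells were MCF-10A, an immortalised but non-tumorigenic human mammary epithelial line. One group was transfected with siRNA against SCTR, the gene of the secretin receptor, and the other with a negative control siRNA, so both groups were transfected cells. Each group had 1 Illumina bead array, so no spread between cultures could be measured and no test was made. The labels give neither the siRNA sequences nor their dose nor the time after transfection. With 0 named SCTR probes the knockdown itself could not be checked, and each direction rests on how the 2 arrays are labelled.

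In G1, growth signals raise D-type cyclins, which activate CDK4 and CDK6 to phosphorylate the retinoblastoma protein and its relatives and release E2F transcription factors. Cyclin E with CDK2 then completes this step, once the phosphatase CDC25A has removed inhibitory phosphates from CDK2. SKP2 is the substrate receptor of an SCF ubiquitin ligase that marks the CDK inhibitor p27 for destruction, and it recognises p27 only together with the small protein CKS1, the product of CKS1B. MYC, an E-box-binding factor that dimerises with MAX, drives growth and many genes of this machinery. In mammary epithelium, cyclin D1 is best known for its requirement in lobuloalveolar growth and its frequent amplification in breast cancer.

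Among the 9 of these 10 genes detected on both arrays, the ligase pair stood furthest from the control. CKS1B was 3.71-fold and SKP2 2.88-fold lower on the SCTR siRNA array, CDK2 was 2.06-fold lower, and CDC25A was detected on the control array only. In RNA of whole cultures, fewer cells in a phase of the cycle and less RNA of a gene per cell cannot be told apart. The D-type and E-type cyclins differed by less than 1.5-fold, MYC was higher by 1.33-fold on its brighter probe, and the kinases that partner cyclin D went opposite ways, with CDK4 1.55-fold lower and CDK6 1.64-fold higher. Of the 9 genes detected on both arrays, 3 were lower by 2-fold or more and 0 were higher by that much. Over all 8661 genes detected on both arrays the corresponding shares were 8.44% lower and 9.73% higher. A probe counted as detected at a detection p under 0.01, and differences are log2 levels on the SCTR siRNA array minus those on the control array after background correction and quantile normalization.

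The promoters of CKS1B, SKP2, CDC25A, CDK4 and CDK6 are shown because they differ in the elements known from cell cycle promoters. RefSeq windows (build GRCh38.p14) were found for 7 of the 10 genes, 10 windows in all, and the missing ones were those of CCND1, CDK2 and MYC. The 250 bases before the annotated start are given 5′ to 3′ on the gene's own strand, and capitals mark a match to any of 4 motifs. These were the E2F motif (TTTCCCGC, TTTGGCGC, TTTCGCGC or TTTGCCGC), the E-box CACGTG, the CCAAT box and the CHR element (TTTGAA or TTCGAA), each searched on both strands, and no match overlapped another in these windows. The windows lie at chr1:154974431-154974680 on the plus strand for CKS1B, chr5:36151861-36152110 on the plus strand for SKP2, and chr3:48188418-48188667 on the minus strand for CDC25A. Those of the opposed kinases lie on the minus strand at chr12:57752311-57752560 for CDK4 and chr7:92836574-92836823 for CDK6, the more upstream of its 2 windows.
CKS1B: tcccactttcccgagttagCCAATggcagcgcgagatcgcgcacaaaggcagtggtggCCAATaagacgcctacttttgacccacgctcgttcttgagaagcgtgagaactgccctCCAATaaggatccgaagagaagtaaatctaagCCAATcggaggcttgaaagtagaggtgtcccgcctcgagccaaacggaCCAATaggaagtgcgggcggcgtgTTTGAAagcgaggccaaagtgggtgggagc
SKP2: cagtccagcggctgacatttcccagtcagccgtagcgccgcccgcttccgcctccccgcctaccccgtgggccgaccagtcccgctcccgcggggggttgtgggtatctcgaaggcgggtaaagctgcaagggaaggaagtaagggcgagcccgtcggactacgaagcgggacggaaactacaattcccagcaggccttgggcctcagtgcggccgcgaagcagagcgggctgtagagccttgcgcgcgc
CDC25A: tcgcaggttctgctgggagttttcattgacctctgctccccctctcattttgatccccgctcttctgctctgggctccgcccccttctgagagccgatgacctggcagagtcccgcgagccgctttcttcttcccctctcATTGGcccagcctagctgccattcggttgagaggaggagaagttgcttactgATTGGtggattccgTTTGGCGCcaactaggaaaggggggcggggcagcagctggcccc
CDK4: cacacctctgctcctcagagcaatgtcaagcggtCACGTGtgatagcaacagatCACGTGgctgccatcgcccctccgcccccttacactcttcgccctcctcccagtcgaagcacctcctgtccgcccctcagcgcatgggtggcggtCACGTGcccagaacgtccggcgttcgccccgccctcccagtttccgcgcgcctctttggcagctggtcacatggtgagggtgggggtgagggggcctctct
CDK6: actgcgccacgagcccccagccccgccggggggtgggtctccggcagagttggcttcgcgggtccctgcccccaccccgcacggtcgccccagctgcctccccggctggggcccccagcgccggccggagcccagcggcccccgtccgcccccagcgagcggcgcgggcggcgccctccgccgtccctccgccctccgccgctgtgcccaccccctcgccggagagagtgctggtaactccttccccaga

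The CKS1B window held 5 CCAAT boxes, between 231 and 50 bases before the start, and 1 CHR element 30 bases before it. CCAAT boxes are bound by NF-Y and CHR elements by MuvB complexes in genes of the later cell cycle. A window with 5 or more CCAAT boxes was rare, at 0.319% of the 35116 windows in the table, while 32.0% held at least 1 and 14.3% held a CHR element. The CDC25A window held 1 E2F motif, found in 2.79% of windows, with 2 CCAAT boxes upstream of it. The CDK4 window held 3 E-boxes, a number reached by 0.0797% of windows, and 6.34% held at least 1. The windows of SKP2, CDK6 and CCNE1 held no match to the 4 motifs in these letters, and the 3 CCND3 windows held 2 CCAAT boxes in all. These matches are descriptions of letters, and no binding was measured.

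**Figure D1:**
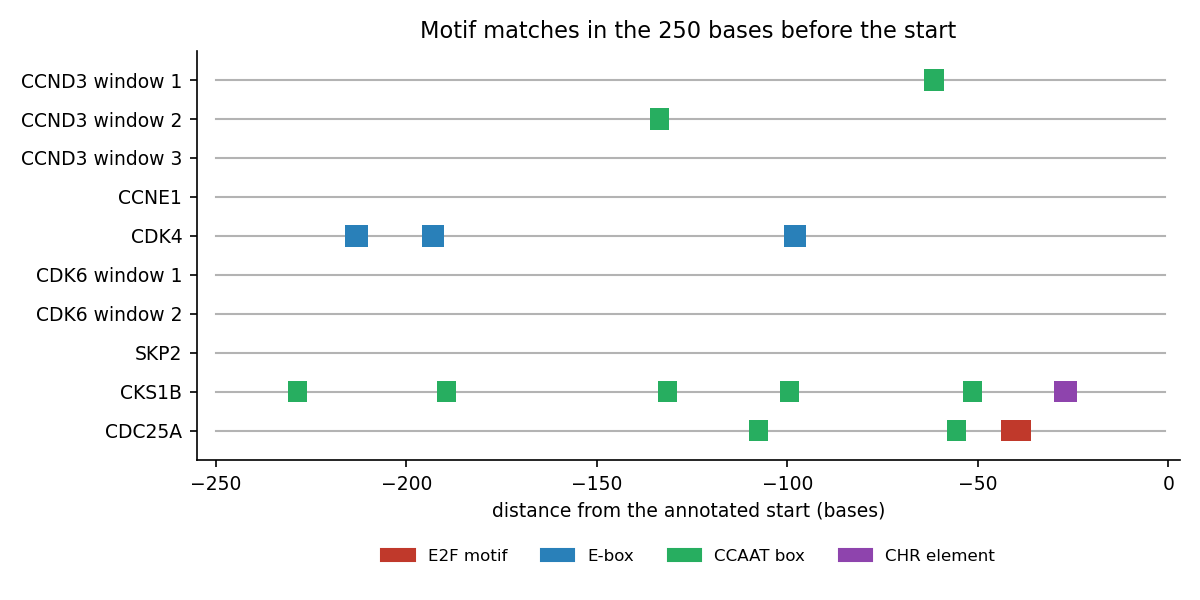
Each line is the 250 bases before an annotated start, with distance from the start in bases on the horizontal axis, and the coloured blocks are motif matches on either strand. CKS1B carries 5 CCAAT boxes and a CHR element, CDC25A 2 CCAAT boxes and an E2F motif, CDK4 3 E-boxes, and the SKP2, CDK6 and CCNE1 lines are empty.

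As a description chosen after the differences were known, genes detected on both arrays were also grouped by these motifs. A group of 195 genes, CKS1B among them, held a CHR element in any window and at least 2 CCAAT boxes in any window. The 2 features could lie in different windows of a gene. These 195 genes had a median difference of -0.17. Of these 14.4% were lower by 2-fold or more and 6.15% higher by that much, against 8.54% lower and 9.41% higher of the 7193 genes with any window. The 48 genes with 5 or more CCAAT boxes, the other feature of the CKS1B window, had a median of -0.16, but their shares lay the other way, with 6.25% lower and 12.5% higher by 2-fold or more. The 438 genes with an E2F motif had a median of -0.08, with 9.82% lower and 5.94% higher by 2-fold or more. The 856 genes with an E-box had a median of -0.10, the same as that of all genes with a window at 2 decimals. Of them 7.94% were lower and 7.71% higher by 2-fold or more. The 15 genes with 3 or more had a median of -0.22, with 6.67% lower and 6.67% higher by 2-fold or more, 1 gene each way. No test of these shares was made.

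SKP2 was represented by 3 probes, 1 of them annotated to a different transcript from the other 2. The brightest, that of the separate transcript, gave an intensity of 1399 units on the SCTR siRNA array against 3787 units on the control array. On the normalized log2 scale its levels were 10.34 with SCTR siRNA and 11.86 with control siRNA, a difference of -1.53. The second probe read 267 units with SCTR siRNA and 353 units with control siRNA, a difference of -0.69 (1.61-fold lower). The third read 144 units with SCTR siRNA, where it was not detected (detection p of 0.023), and 209 units with control siRNA. Its bound depended on the processing: at least 2.07-fold lower in the main setting, 1.42-fold without background correction and 1.40-fold in the authors' processed values. The 2 SKP2 probes detected on both arrays were lower with SCTR siRNA, but by unequal amounts. The third was detected on the control array only, so its bound could point no other way. The dimmer probes lay close to background. SKP2 stood at rank 204 from the bottom of the 8661 genes.

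CKS1B gave nearly the same difference on both of its probes. The brighter read 1245 units on the SCTR siRNA array against 4257 units on the control array, and the other 797 units with SCTR siRNA against 2662 units with control siRNA. Their log2 differences were -1.89 and -1.91 (3.71-fold and 3.76-fold lower). CKS1B thus had the largest difference of the 9 genes detected on both arrays and stood at rank 79 from the bottom of 8661. Its closest paralog, CKS2, which encodes the other small CDK-binding CKS protein, was at 0.04 on the same scale.

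The other subunits of the ligase did not share the size of these differences. The list of SCF partners and of the cyclin E ligase had 5 of 5 genes detected on both arrays and none at least 2-fold apart in either direction. By the same rule, 8.44% of all genes were lower and 9.73% higher. RBX1, the RING subunit, was at -0.65, and the scaffold CUL1 at -0.39. SKP1, the adaptor that holds SKP2, was at 0.06, with 0.31 on its second probe. FBXW7, the receptor of the ligase that targets cyclin E and MYC, was at 0.46, with 0.99 on its second probe. The median of the list was 0.04, which turned to -0.26 when the detected probes of each gene were averaged and to -0.015 under median scaling.

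CDC25A was detected on 1 array only. Its probe read 129 units on the SCTR siRNA array, which was not above background (detection p of 0.087), and 238 units on the control array (detection p of 0). Set against the dimmest detected probe of the SCTR siRNA array, its level was at least 2.56-fold lower there. With detection on the control array only, this bound could point no other way. Of 323 genes detected on the control array only, 18.9% had a bound of at least 2-fold. The bound for CDC25A was at least 1.62-fold without background correction and at least 1.58-fold in the authors' processed values. CDC25B, the phosphatase that acts at entry into mitosis, was at 0.37, and the mitotic CDC25C at -0.81 (174 units with SCTR siRNA, 219 units with control siRNA). Kinases that oppose these phosphatases were lower: WEE1, which puts the inhibitory phosphate on CDKs, was at -1.78 (3.44-fold lower), and the checkpoint kinases CHEK2 and CHEK1, which act on CDC25 proteins, were at -1.69 and -1.14. In this list 3 of 5 measured genes were lower by 2-fold or more and 0 were higher by that much. Of all genes, 8.44% were lower and 9.73% higher by that much. The list had a median of -1.14 against -0.09 over all genes. CHEK1 was at -0.91 without background correction and at -0.88 in the authors' processed values, which left 2 of the 5 genes, WEE1 and CHEK2, past 2-fold. The CHEK1 values were also the list medians there. Over all 8661 genes, 417 were lower by 2-fold or more without background correction and 394 in the authors' processed values.

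**Figure D2:**
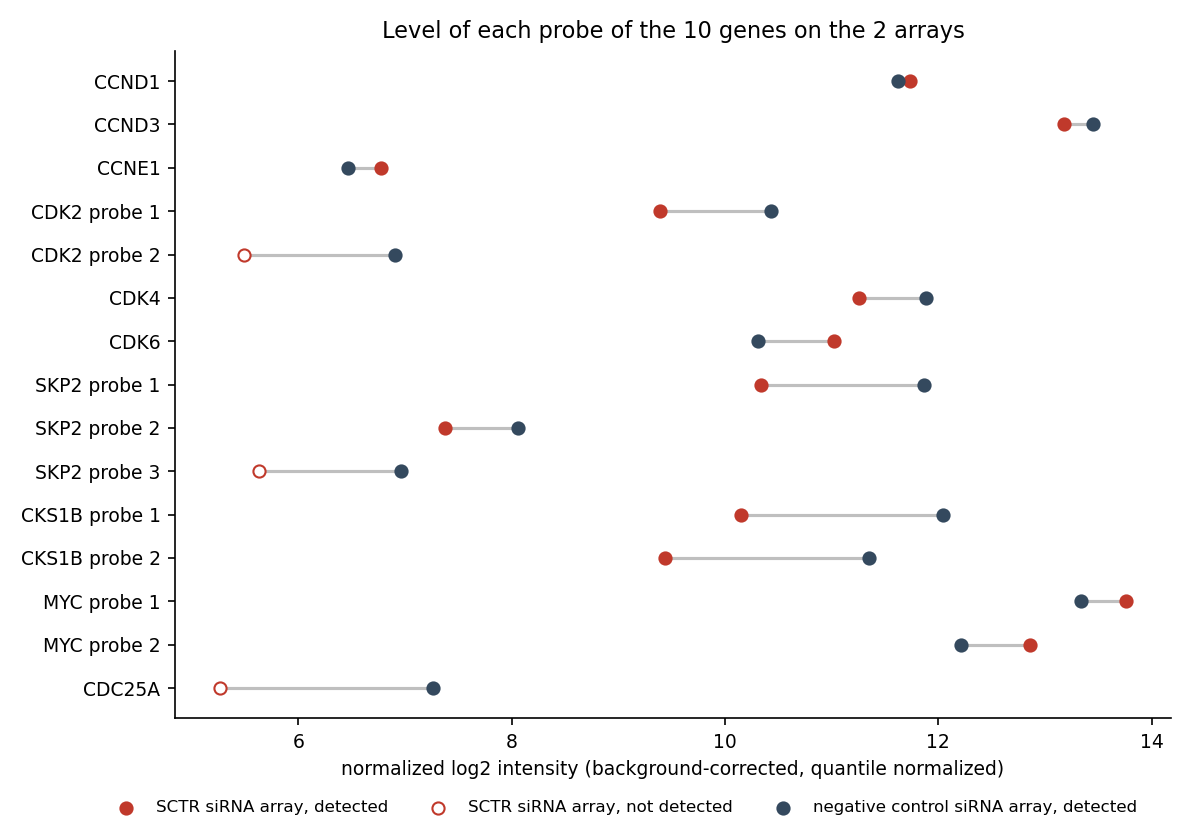
Each row is 1 probe, and the horizontal axis is its normalized log2 intensity on the SCTR siRNA array (red) and the negative control siRNA array (dark blue), with open circles where the probe was not detected. Both CKS1B probes and the first SKP2 probe span the widest gaps among probes detected on both arrays, and the open circles belong to CDC25A and to the dimmest CDK2 and SKP2 probes.

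Among the kinases, CDK2, the partner of cyclins E and A, read 772 units on the SCTR siRNA array against 1458 units on the control array by its brighter probe. The log2 difference was -1.04. Its second probe was not detected on the SCTR siRNA array (138 units, detection p of 0.034) and read 205 units on the control array. The bound was at least 2.00-fold lower with SCTR siRNA in the main setting, 1.40-fold without background correction and 1.37-fold in the authors' processed values. Since that probe was detected on the control array only, its bound could point no other way and adds no support to the brighter probe. The size lay at the 2-fold line: without background correction the brighter probe gave -0.95 and in the authors' processed values -0.93, which left 2 of the 9 genes, CKS1B and SKP2, at least 2-fold lower in either.

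CDK4 and CDK6, which share the D-type cyclins, differed in direction. CDK4 read 2557 units with SCTR siRNA and 3836 units with control siRNA, a log2 difference of -0.63. CDK6 read 2193 units with SCTR siRNA and 1350 units with control siRNA, a log2 difference of 0.71. Each had 1 probe, so neither value had a second measurement on the arrays. CDK4 ranked 1783 from the bottom and CDK6 1372 from the top of the 8661 genes. Differences of this size were common: 22.6% of all genes were lower and 19.5% higher by 1.5-fold or more. The CDK-activating kinase, which phosphorylates the T-loop of all these CDKs, had all 3 subunit genes slightly lower, with CDK7 at -0.43, MNAT1 at -0.41 and CCNH at -0.23 (-0.26 on its second probe).

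The cyclins of G1 differed little. CCND1 read 3544 units on the SCTR siRNA array and 3189 units on the control array, a log2 difference of 0.11. CCND3 read 9427 units with SCTR siRNA and 11383 units with control siRNA, at -0.27. CCNE1 was dim on both arrays, with 209 units with SCTR siRNA and 176 units with control siRNA, and its difference of 0.31 moved with the processing, to 0.16 without background correction and 0.42 under median scaling. No G1 cyclin reached a 1.5-fold difference, and each kept its sign in all 8 settings tried. For these cyclins the changed detection filters and averaged probes returned the main value, so only the other treatments could have moved it. The cyclins and kinases of S phase and mitosis had larger negative values: CDK1, the mitotic kinase, was at -2.41 (218 units with SCTR siRNA, 710 units with control siRNA), the S phase and mitotic cyclin CCNA2 at -0.90 and the mitotic cyclin CCNB1 at -0.84. CDK1 was dim with SCTR siRNA. In the authors' processed values CDK1 was at -1.74, CCNA2 at -0.70 and CCNB1 at -0.59. No probe was named for CCND2, CCNE2, CCNA1 or CDK3.

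MYC was bright on both arrays and higher with SCTR siRNA on both of its probes. The brighter read 13522 units on the SCTR siRNA array against 10527 units on the control array, a log2 difference of 0.42. The other read 7484 units with SCTR siRNA and 4833 units with control siRNA, at 0.65 (1.57-fold). The lowest value over the settings was 0.29, under median scaling, and MYC stood at rank 2174 from the top of the 8661 genes in the main setting.

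The MYC network around it was mixed. MNT, a repressor that competes for MAX, was at 1.06 (2.08-fold higher), whereas the antagonists MXD1 and MXI1 were at -0.66 and -0.65. MAX, the partner of all these proteins, gave opposite signs on its 2 probes, 0.60 and -0.60. Of 7 partners and antagonists, 1 was higher and 0 were lower by 2-fold or more, with a median of 0.05. That gene was MNT, which was at 0.90 without background correction and 0.91 in the authors' processed values, so the count was 0 of 7 in both, as it was with a background offset of 50. Among 14 measured MYC target genes 2 were higher and 1 was lower by 2-fold or more. Of all genes, 9.73% were higher and 8.44% lower by that much. The median of the target genes was 0.28 (0.14 under median scaling) against -0.09 over all genes. The ribosome biogenesis gene PPAN was at 1.07, CAD, which starts pyrimidine synthesis, at 1.05 and the nucleolar protein gene NOP56 at 0.96 (0.60 and 0.69 on its other probes), while RCL1, of the small ribosomal subunit pathway, was 2.0-fold lower. ODC1 was at -0.94, short of 2-fold, and of the 14 genes 6 were negative and 8 positive. RCL1 is not the MYC-responsive gene once called Rcl, so its place in the list is doubtful. Without RCL1 the other 13 genes had a median of 0.34, with 2 of them higher and 0 lower by 2-fold or more. PPAN and CAD were dim and were at 0.63 and 0.72 in the authors' processed values, and RCL1 was at -0.78 there. Both counts of target genes were 0 in those values, without background correction and with an offset of 50.

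**Figure D3:**
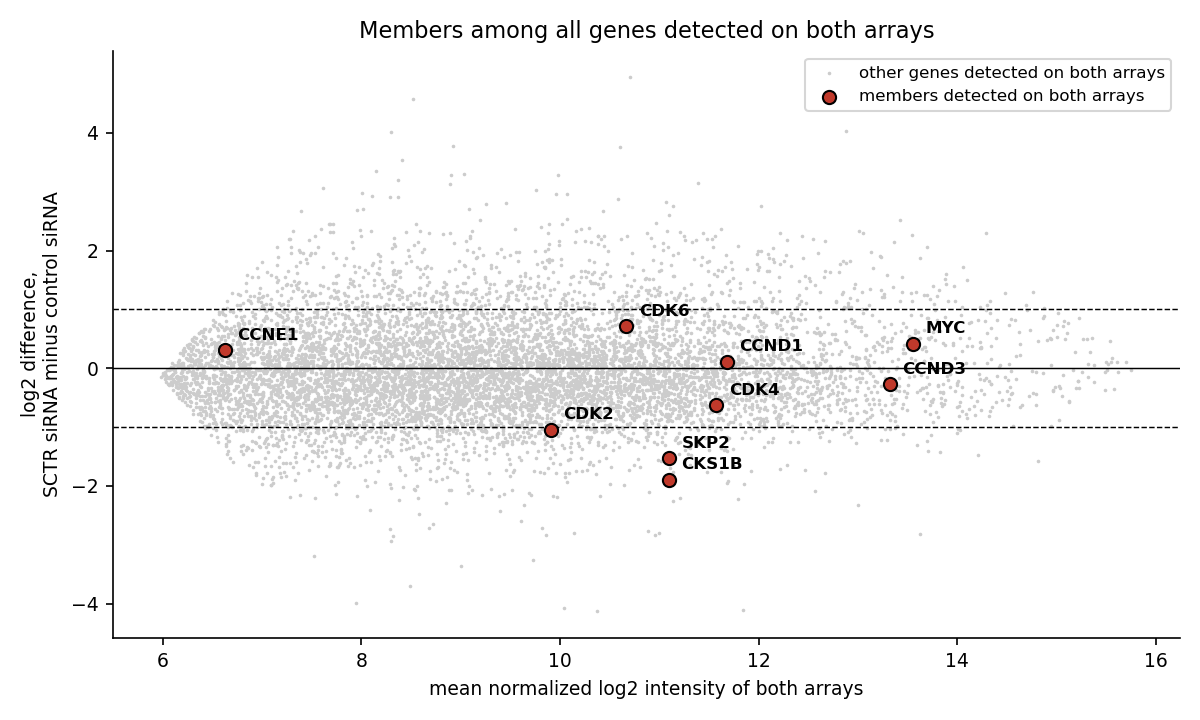
Each point is a gene detected on both arrays, placed by its mean normalized log2 intensity and by its log2 difference, SCTR siRNA minus control siRNA, with dashed lines at a 2-fold difference. CKS1B, SKP2 and CDK2 lie below the lower line, and the other 6 members detected on both arrays lie between the lines.

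Upstream of cyclin D1 and MYC, 8 genes were measured, of which 1 was lower and 0 were higher by 2-fold or more, and their median was 0.18. Over all genes 8.44% were lower and 9.73% higher by that much. JUN, an AP-1 factor that activates CCND1, was at 1.00 (1722 units with SCTR siRNA, 888 units with control siRNA; 1.99-fold). CTNNB1, the beta-catenin gene of Wnt signalling, was at 0.70 with 0.72 on its second probe. FBXO4, an F-box protein linked to cyclin D1 turnover, was at -1.21 (2.31-fold lower), and CSNK2B, the regulatory subunit of casein kinase 2, at -0.78. FBXO4 fell short of 2-fold without background correction (-0.93) and in the authors' processed values (-0.91), which left 0 of 8.

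Of the inhibitors and pocket proteins that hold these kinases and E2F factors in check, 6 were detected on both arrays. By 2-fold or more, 2 of the 6 were lower and 0 higher, beside 8.44% lower and 9.73% higher over all genes. RBL2, the p130 pocket protein of resting cells, was at -2.12 (495 units with SCTR siRNA, 1773 units with control siRNA), the inhibitor CDKN1C at -1.62 and RB1 at -0.88. CDKN1C was at -0.999 without background correction, just inside the 2-fold line, and at -0.96 in the authors' processed values, which left RBL2 as the 1 gene past it in both. CDKN1A, the p21 gene, was at 0.64, and CDKN1B, which encodes p27, the substrate of SKP2 and CKS1, was at -0.38. The list thus held genes on both sides of 0, with a median of -0.63.

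E2F and DP factors lay close to 0, with 0 of 8 at least 2-fold apart and a median of -0.06. TFDP2 was at -0.65 (-0.38 on its second probe), the repressive factor E2F4 at 0.35, E2F2 at 0.27 and TFDP1 at -0.25. With a detection p under 0.05 in place of 0.01, E2F1 entered the list as 1 of 9 genes lower by 2-fold or more. Their target genes of S phase entry had a median of -0.14 over 11 genes, with 2 lower and 0 higher by 2-fold or more. The shares over all genes were 8.44% lower and 9.73% higher. Thymidine kinase TK1 was at -1.25, the replicative helicase subunits MCM6 and MCM5 at -1.03 and -0.77, and thymidylate synthase TYMS at -0.49, while the remaining 7 lay between -0.30 and 0.20. The 2 genes past 2-fold, TK1 and MCM6, were at -0.68 and -0.89 in the authors' processed values and at -0.71 and -0.93 without background correction, so the count was 0 in both and also with an offset of 50. Without a detection filter the list had 13 genes and a median of -0.30.

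**Figure D4:**
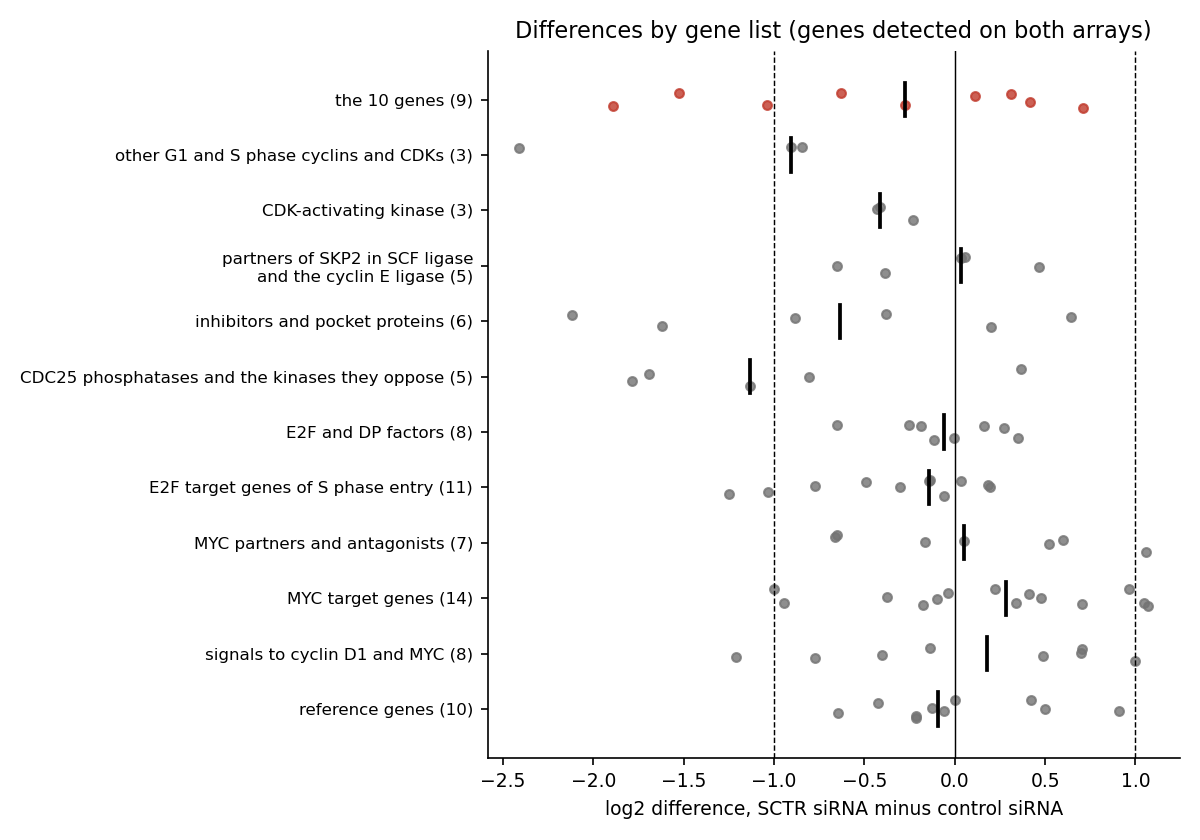
Each point is a gene detected on both arrays, placed by its log2 difference, SCTR siRNA minus control siRNA, with the list and its number of genes on the vertical axis, black bars at list medians and dashed lines at a 2-fold difference. The 9 members detected on both arrays spread from -1.89 to 0.71 with a median of -0.27, and the reference genes from -0.65 to 0.91 with a median of -0.09.

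As a set, the members spread widely: 5 of the 9 genes detected on both arrays were negative and 4 positive. That split was close to the one over all genes, of which 55.5% were negative. The members had a median of -0.27, beside a median of -0.09 and an SD of 0.80 over all genes. Agreement between probes of the same gene was one gauge of measurement error within these arrays. In 1902 genes with at least 2 detected probes the brightest 2 differed by a median of 0.19 on the log2 scale, and 90% differed by less than 0.70. Where the brightest of those probes was at least 2-fold from 0, the second had the same sign in 90.9% of 328 genes. Both CKS1B probes lay closer together than this median, and the first 2 SKP2 probes lay further apart than 90% of genes. A list of 10 reference genes often used for normalization gave a further range to set the members against, which is not one of measurement error: ACTB was higher on all 3 of its probes. Their differences ran from -0.65 for TBP to 0.91 for TFRC. CKS1B, SKP2 and CDK2 lay outside that range, whereas CDK4, CDK6, MYC and the 3 cyclins lay inside it. Values outside the range were common among all genes, so lying outside it does not by itself set a member apart. CDK4 at -0.63 was just inside its lower end, and 20.6% of all genes were as low or lower. At the other end, 9.73% of all genes were higher by 2-fold or more, beyond the value of TFRC. Neither the probe agreement nor the reference range contains the spread between cultures.

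**Figure D5:**
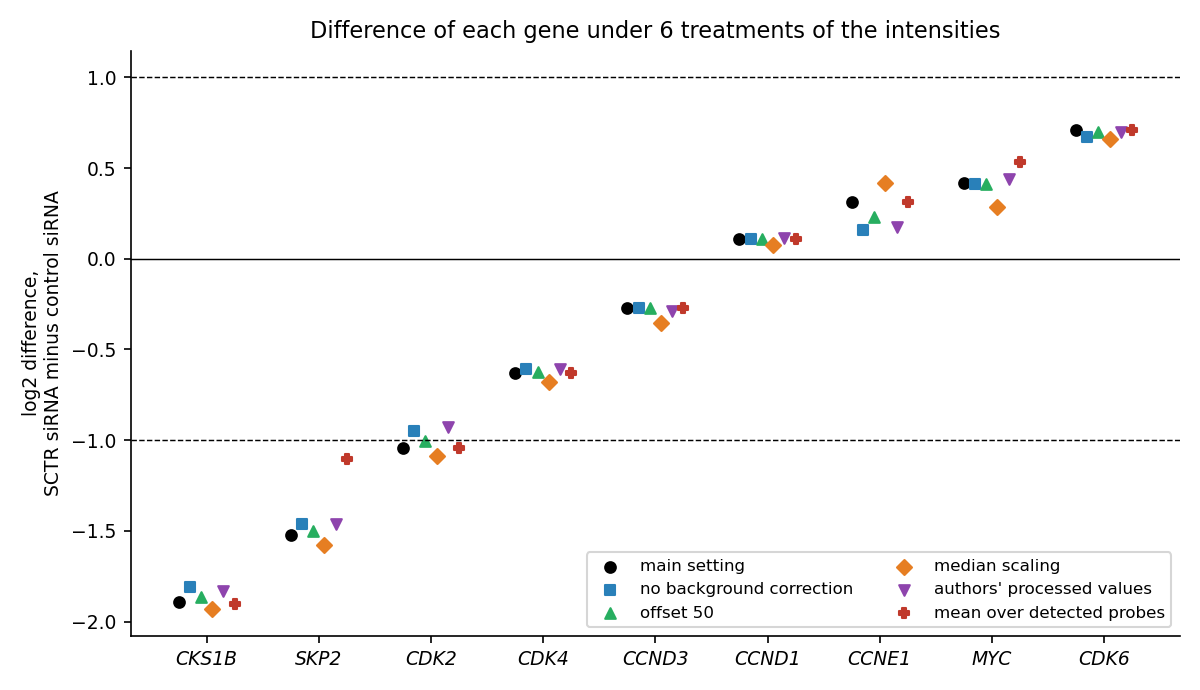
The vertical axis is the log2 difference, SCTR siRNA minus control siRNA, of each of the 9 genes detected on both arrays, with a symbol for each of 6 treatments of the intensities and dashed lines at a 2-fold difference. Every gene keeps its side of 0, CKS1B and SKP2 stay beyond the 2-fold line in all 6, and CDK2 crosses it without background correction and in the authors' processed values.

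Other features of the arrays moved along with these differences, and their part in them was not tested. At a detection p under 0.01, 33.5% of probes were detected with SCTR siRNA and 32.2% with control siRNA. Of 9 basal mammary markers 4 had a named probe, all detected on both arrays and all higher with SCTR siRNA: LAMB3 at 2.14, EGFR at 1.81, ITGB4 at 1.00 and CDH3 at 0.99. Their summed intensity was 47164 units with SCTR siRNA and 17942 units with control siRNA. KRT5, KRT14, KRT17, KRT6A and TP63 had no named probe here, so the basal identity of the cells rests on the other 4. Higher values were not limited to basal markers: of 4 pan-epithelial markers 3 were named and detected on both arrays, with CDH1 at 1.79, EPCAM at 0.82 (0.92 and 0.89 on its other probes) and KRT8 at 0.07. Their summed intensity was 18092 units with SCTR siRNA and 7056 units with control siRNA. Of 5 blood cell markers only CD14 was named (1.78), 1 of 7 fibroblast markers, COL1A1, was named and was detected on the SCTR siRNA array only, and of 3 endothelial markers 0 were named.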

How the data were processed

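Biotin-labelled cRNA was hybridised to Illumina bead arrays, 1 per group, per the labels. The authors deposited a non-normalized intensity and a detection p-value for each of 47323 probes per array (7 without a signal were left out), and the submitters' processing notes name GenomeStudio 2011.1. Intensities were never negative and were taken as not background-subtracted. They also deposited log2 values of 16871 probes, normalized between arrays by steps the labels do not give, with r = 1.00 against the log2 of the intensities on both arrays. The platform annotation of those probes gave the symbols, and 3808 probes had no name.

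limma 3.58.1 (R 4.3.3) was used for the normal-exponential background correction (offset 16, controls inferred from detection p-values) and quantile normalization. Each gene's level is that of its brightest probe among those that both arrays detected at a p under 0.01. A probe detected on 1 array got a bound against the higher of its own dim level and the dimmest detected probe of the other array, at a log2 level of 5.91 on the SCTR siRNA array. No p-value was computed, since there were no replicate arrays. The steps were tested on simulated data with known differences. These were planted only in brighter probes detected on both arrays, so the test says nothing on differences of dim probes. The alternatives were 3 other background or scaling treatments, the authors' processed values, looser or no detection filters, averaged probes and a 1.5-fold rule; counts of listed genes under them were added after the data were seen. Each list is represented by up to 4 genes with the largest absolute difference. CDC25B, CKS2, CDKN1B, ODC1 and the markers were added to the named genes with their values in view. The genes and lists were chosen with earlier results of these data known.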

Additional observations from a re-analysis of the deposited data

How the results depend on the processing

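No paired analysis was possible because each group had 1 array, and no array could be left out. Under the 7 alternatives each of the 9 genes detected on both arrays kept its direction. The looser or absent detection filters returned the main value for all 9, so they say nothing about direction. Averaged probes changed the values of CKS1B, SKP2 and MYC only. A 1.5-fold rule gave 1 of the 9 genes higher (CDK6) and 4 lower (CKS1B, SKP2, CDK2 and CDK4). Of all genes, 1691 (19.5%) were higher and 1955 (22.6%) lower by that rule. At 2-fold, 731 of all genes were lower in the main setting, 417 without background correction and 394 in the authors' processed values. Without a detection filter the median of the 10 genes was -0.45. The median of the MYC partners and antagonists was -0.0012 with detected probes averaged. That of the ligase partners was -0.26 with detected probes averaged and -0.015 under median scaling. The bounds, recomputed under 4 treatments chosen after the data were seen, shrank where background was left in: to 1.40-fold for the second CDK2 probe and 1.42-fold for the third SKP2 probe without correction. Dim probes, such as those of CCNE1 and CDC25A, limit what these arrays show.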
